A study of Homo sapiens with 12 samples.

Results

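The difference between HepG2 and Huh7 cells in their response to UBL5 knockdown (KD) was measured over all 12 RNA-seq libraries of the study. It was read in the 15781 genes that the deposited tables list for both lines, of 20293 genes listed for either line. For each gene, the change in Huh7 (UBL5 siRNA over Ctrl-siRNA, log2) minus the change in HepG2 gave the difference, so that a value below 0 means that Huh7 moved lower than HepG2. HepG2 and Huh7 are human liver cancer cell lines, both labelled hepatocellular carcinoma and wild type in genotype, and both were grown in low-glucose medium with serum. The 4 groups of 3 libraries were HepG2 with Ctrl-siRNA, HepG2 with UBL5 siRNA, Huh7 with Ctrl-siRNA and Huh7 with UBL5 siRNA, at 52 h per the labels, where a legend of the study gives a shorter time. Ctrl-siRNA was a nontarget siRNA, and the materials name one UBL5 siRNA, so effects of that siRNA beyond UBL5 cannot be told apart from those of UBL5 loss. No source used here says whether the 3 libraries of a group came from separate transfections, and p-values therefore reflect only how these libraries scattered.

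UBL5 is a small ubiquitin-like protein that binds SART1, a protein of the U4/U6.U5 tri-snRNP, and is needed for efficient removal of introns from many pre-mRNAs. The p53 protein switches on genes that halt the cell cycle, repair DNA or start apoptosis. NF-κB is a family of transcription factors held inactive by inhibitors such as IκBα, and it switches on chemokines, survival genes and its own inhibitors. Hepatoma cells also keep much of the secretory program of the liver, including complement, clotting factors and acute phase proteins.

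The libraries held 19469574 to 29744471 counts assigned to genes. One HepG2 library, Ctrl-siRNA replicate 3, lay away from the rest and had 0 counts for 1246 of the joined genes, where the other HepG2 libraries had 0 counts for 36 to 65 and the Huh7 libraries for 16 to 45. It had the highest total, 29744471, and the HepG2 control values of 0 CPM given below all come from it. The count columns of both HepG2 libraries numbered 3 lack the name suffix of the other columns, for a reason not given. HepG2 replicates, with that library among them, scattered more than those of Huh7, with biological coefficients of variation of 0.187 and 0.0660, and one model over all 12 libraries gave the errors below. Mitochondrial transcripts took 1.91 to 2.35% of counts with Ctrl-siRNA and 2.75 to 3.61% with UBL5 siRNA in HepG2, and 2.46 to 3.30% and 2.66 to 3.72% in Huh7. All 16 hepatocyte markers of a fixed list were measured, with summed levels of 64834 to 77491 CPM (counts per M counts of the TMM-scaled library) in HepG2 and 34631 to 37333 CPM in Huh7. Of 14 leukocyte markers 2 were measured in both lines, CD14 and LYZ, with PTPRC and CD3E not among the genes tested, and their summed level was 1030 to 2308 CPM in HepG2 and 325 to 561 CPM in Huh7. Of 11 endothelial markers 2 were tested, with VWF and CDH5 not among them, and of 12 fibroblast markers 5, with COL3A1 not among them. The samples are cultured cell lines, so these levels describe expression by the lines rather than a mixture of tissue cells. Bulk RNA does not show how expression varied between the cells of a culture.

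UBL5 itself fell in both lines. It had 62.6, 57.7 and 61.8 CPM with Ctrl-siRNA and 7.19, 4.48 and 2.97 CPM with UBL5 siRNA in HepG2. In Huh7, the values were 67.0, 69.5 and 65.0 CPM and 6.20, 6.44 and 5.59 CPM. Every KD library lay below every control library of its line. The log2 fold change was −3.62 (SE 0.199) in HepG2 and −3.47 (SE 0.194) in Huh7, and the difference was 0.16 (95% interval −0.43 to 0.74, adjusted p = 0.735, quasi-likelihood test of edgeR).

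The response to UBL5 KD differed between the lines for many genes, in both directions. Of 15668 genes with enough counts to be tested, 3374 (21.5%) passed the test of the difference at an adjusted p under 0.05. The difference was above 0 for 1826 genes (11.7%) and below 0 for 1548 (9.88%), and its median over all genes tested was −0.01. Within the lines, 5645 genes (36% of those tested) changed in HepG2 and 10943 (69.8%) in Huh7. These calls came from a separate fit for each line and depend on its scatter, which was wider in HepG2 (0.187 against 0.0660). The counts of calls, here and in the classes below, therefore do not measure how widely each line responded. Of the genes that differed, 320 (2.04% of all genes tested) were called in opposite directions in the lines, 134 of which rose in HepG2 and fell in Huh7 and 186 fell in HepG2 and rose in Huh7. Another 921 moved one way in both lines by different amounts, of which 397 rose and 524 fell in both. Huh7 alone was called for 1651, HepG2 alone for 429 and neither line for 53. A call in only one line did not by itself mean that the difference passed: of 6080 genes called in Huh7 alone, 27.2% passed the test of the difference, and of 782 called in HepG2 alone, 54.9% did. Of 4543 genes that rose in both lines or fell in both, 20.3% differed in size. Most differences were small, with a median size of 0.68 on the log2 scale, and 867 reached 1, of which 533 were lower in Huh7. Counts in the gene lists below stand beside 21.5% of all genes tested and 26.2% of protein-coding genes. The share was 30.5% of genes at 30 to 100 CPM and 34.4% of those over 100 CPM.

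**Figure D1:**
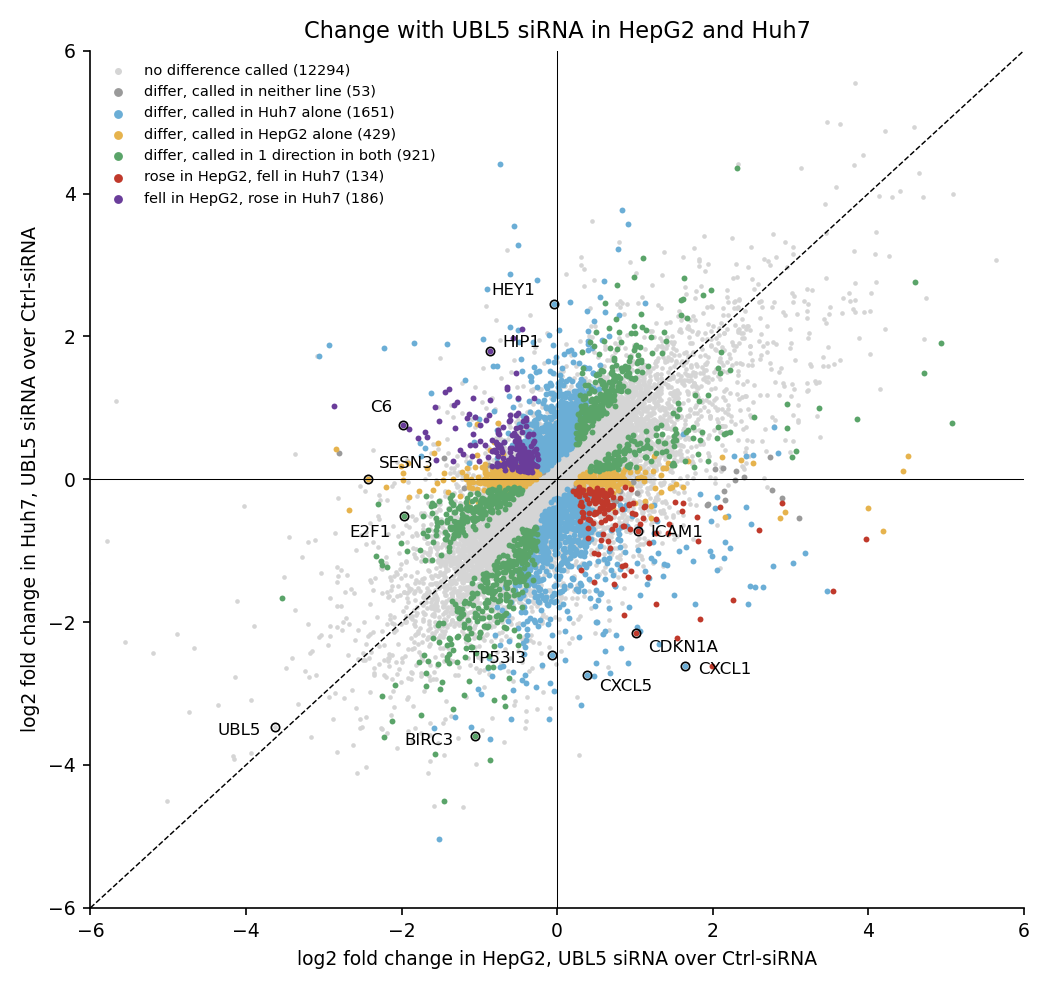
Change with UBL5 siRNA over Ctrl-siRNA in HepG2 (horizontal axis, log2) and in Huh7 (vertical axis, log2) for the 15668 genes tested, coloured by whether and how the lines differed, with 11 genes beyond the axes. Points on the dashed line had equal changes; the 134 red points rose in HepG2 and fell in Huh7, the 186 purple points did the reverse, and UBL5 lies near the line.

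Targets of p53 went higher in HepG2 than in Huh7. CDKN1A, the gene of p21, which blocks CDKs (ENSG00000124762, chromosome 6 from 36676460 to 36687337 of GRCh38), had 205, 276 and 297 CPM with Ctrl-siRNA and 417, 544 and 609 CPM with UBL5 siRNA in HepG2. In Huh7, it had 12, 15.8 and 16.2 CPM with Ctrl-siRNA and 2.75, 2.88 and 4.16 CPM with UBL5 siRNA. All KD libraries were above the controls in HepG2 and below them in Huh7, and Huh7 started far lower. The log2 fold changes were 1.01 and −2.15, with a difference of −3.17 (SE 0.280, adjusted p = 1.53e-05). MDM2, which encodes the ubiquitin ligase that degrades p53, had 251, 236 and 242 CPM and then 427, 473 and 509 CPM in HepG2. In Huh7, it went from 67.8, 68.0 and 66.5 CPM to 58.5, 61.9 and 63.8 CPM. MDM2 thus rose in HepG2 and fell slightly in Huh7, a difference of −1.08 (SE 0.0976, adjusted p = 1.74e-05). TP53I3, a p53-induced oxidoreductase, had 38.5, 37.9 and 36.4 CPM and 42.7, 31.9 and 33.4 CPM in HepG2, where the groups overlapped. In Huh7, it fell from 36.4, 33.7 and 32.3 CPM to 6.67, 6.11 and 5.91 CPM, and the difference was −2.39 (SE 0.162, adjusted p = 3.01e-06).

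Of 30 p53 targets tested, of 35 in the list, 19 differed between the lines, 18 of them lower in Huh7 and 1 higher, beside 9.88% and 11.7% of all genes. The median difference was −0.68. In HepG2, 18 rose and 2 fell, beside 36% of all genes tested called in either direction there. In Huh7, 9 rose and 14 fell, beside 69.8%. Called in opposite directions were CDKN1A, MDM2, the antiproliferative gene BTG2, BLOC1S2 of lysosome positioning and PMAIP1, the gene of the death protein NOXA. BTG2 had log2 fold changes of 0.65 in HepG2 and −0.42 in Huh7, and PMAIP1 had 1.14 and −0.37. The stress sensor GADD45A rose by 1.40 in HepG2 and had 0.15 (adjusted p = 0.32) in Huh7, a difference of −1.24 (adjusted p = 0.00141). ZMAT3, which encodes an RNA-binding zinc finger protein, rose in both lines, by 1.5 and 0.47, as did BBC3, the gene of the death protein PUMA, by 1.69 and 0.69. Both rose more in HepG2. BAX, the pore-forming death effector, was the 1 target that was higher in Huh7, with 0.17 (adjusted p = 0.185) in HepG2 and 0.70 in Huh7.

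**Figure D2:**
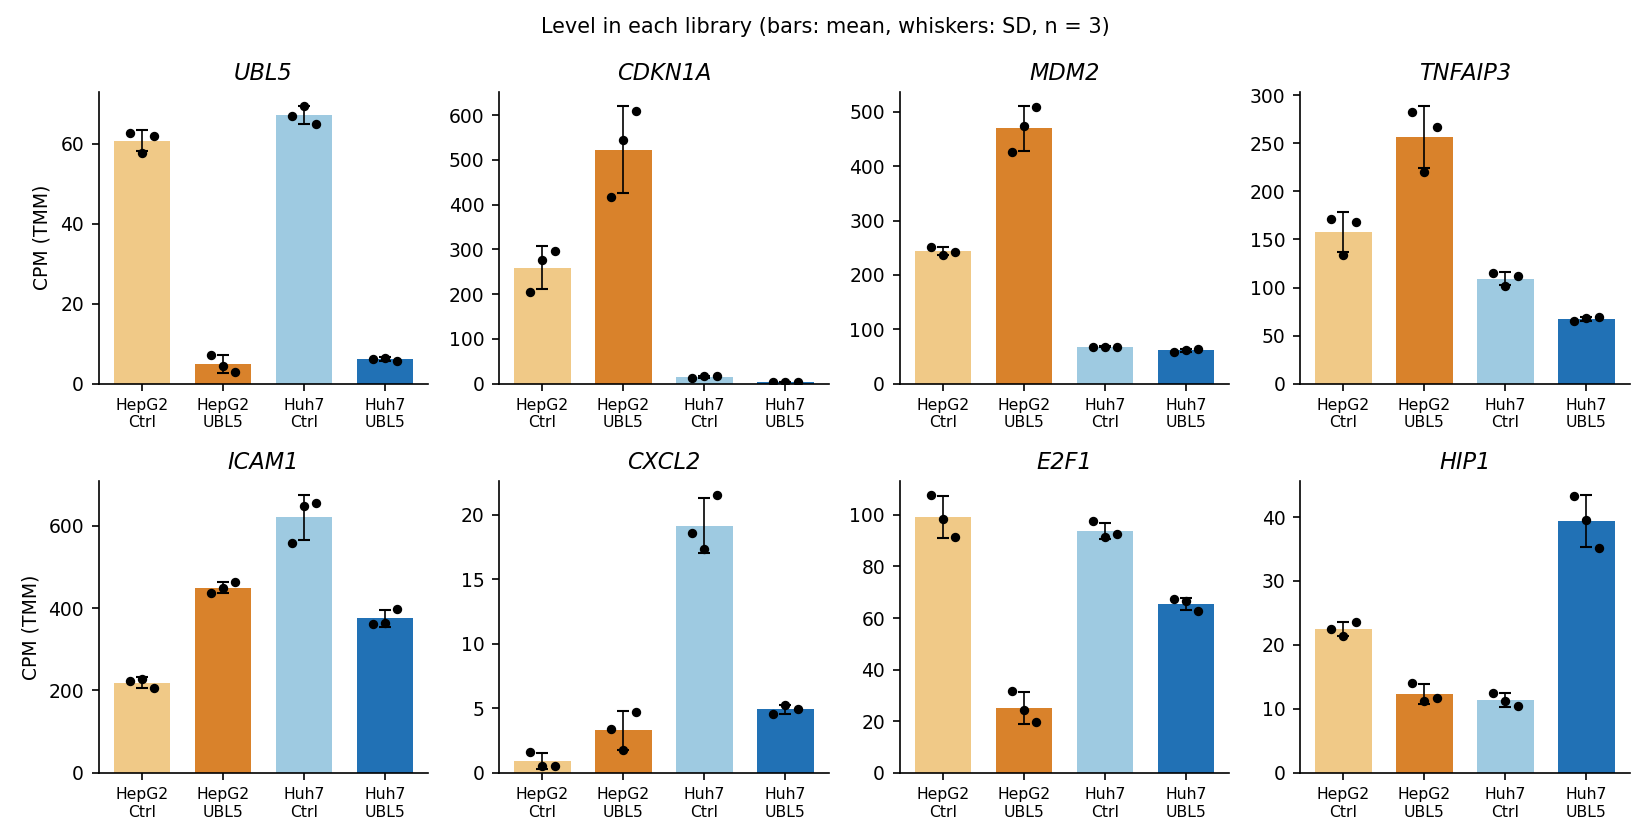
CPM of 8 genes in each of the 12 libraries (points), with the group mean (bars) and SD (whiskers), n = 3. UBL5 fell in both lines, CDKN1A, MDM2, TNFAIP3, ICAM1 and CXCL2 rose in HepG2 and fell in Huh7, E2F1 fell more in HepG2, and HIP1 fell in HepG2 and rose in Huh7.

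Genes of the NF-κB pathway and the inflammatory genes it controls also went lower in Huh7. Many of them hold a κB motif in the promoter, and the 30 bases of RefSeq promoter sequence around the motif nearest to the 5′ end of the window are shown for 7 of the genes described next, with the motif in capitals, 5′ to 3′ on the strand of the gene.
CXCL1: aactccGGGAATTTCCCtggcccgggggct
CXCL2: agctccGGGAATTTCCCtggcccgggactc
CXCL3: agctccGGGAATTTCCCtggcccggccgct
CXCL5: agttcaGGGAATTTCCCcagcatcccaaag
BIRC3: ggtcatGGAAATCCCCgagtgggtttgcca
TNFAIP3: gactttGGAAAGTCCCgtGGAAATCCCCgg
NFKBIA: tggcttGGAAATTCCCcgagcctgaccccg
The sequences lie (GRCh38.p14) on chromosome 4 from 73869308 to 73869337 on the plus strand (CXCL1), from 74099250 to 74099279 on the minus strand (CXCL2), from 74038745 to 74038774 on the minus strand (CXCL3) and from 73998745 to 73998774 on the minus strand (CXCL5). The others lie on chromosome 11 from 102317279 to 102317308 on the plus strand (BIRC3), chromosome 6 from 137867186 to 137867215 on the plus strand (TNFAIP3) and chromosome 14 from 35404807 to 35404836 on the minus strand (NFKBIA). The 4 CXCL genes share the run of capitals, which holds overlapping matches, and CXCL1, CXCL2 and CXCL3 also share most of the flanking bases.

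The κB consensus of 10 bases was searched on both strands from 250 bases before to 50 bases after each transcript start in RefSeq. It was found for 8.95% of the 10395 tested genes that have a promoter entry. Of the NF-κB list, 21 tested genes had an entry and 12 of these held the motif, among them 8 of the 9 that were lower in Huh7. Of the inflammatory list, 13 had an entry and 7 held it, among them 6 of 9 that were lower in Huh7. Of the 6, CXCL1, CXCL2, CXCL3 and CXCL5 had few counts in HepG2. Both lists were written from general knowledge of the pathway and its outputs. A share above that of all genes was therefore built in, and the role of the motif in the difference was not tested. A match of letters is not evidence of binding in these cells, which was not measured here.

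Among the inhibitors of the pathway, TNFAIP3, which encodes the ubiquitin-editing enzyme A20 (ENSG00000118503), had 171, 134 and 168 CPM with Ctrl-siRNA and 283, 221 and 267 CPM with UBL5 siRNA in HepG2. In Huh7, it had 115, 101 and 112 CPM and then 64.8, 67.9 and 69.3 CPM. TNFAIP3 rose by 0.70 in HepG2 and fell by 0.70 in Huh7, and the difference was −1.40 (SE 0.150, adjusted p = 6.03e-05). NFKBIA, the gene of IκBα, rose from 193, 184 and 237 CPM to 372, 304 and 380 CPM in HepG2. In Huh7, it had 137, 135 and 138 CPM and 128, 126 and 134 CPM, a log2 fold change of −0.08 (adjusted p = 0.105). Its difference was −0.86 (adjusted p = 0.000871). BIRC3, an inhibitor of apoptosis and adaptor of TNF receptors, fell in both lines but by far more in Huh7. It went from 49.9, 24.1 and 48.6 CPM to 23.6, 14.0 and 21.6 CPM in HepG2 and from 159, 139 and 156 CPM to 11.5, 13.2 and 12.8 CPM in Huh7. The difference was −2.54 (SE 0.334, adjusted p = 0.00023). Among subunits and kinases the differences went both ways. NFKB1, which encodes the p50 subunit, had −0.19 (adjusted p = 0.091) in HepG2 and fell by 0.50 in Huh7. RELA, the gene of the p65 subunit, rose in both lines, by 0.37 and 0.71, and MAP3K14, which encodes the kinase NIK, had 0.12 (adjusted p = 0.69) in HepG2 and rose by 1.2 in Huh7. Of 24 genes in the NF-κB list, 13 differed, 9 lower and 4 higher in Huh7, with a median difference of −0.24, and 8 differed without Ctrl-siRNA replicate 1 or UBL5 siRNA replicate 2 or 3 of Huh7.

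Among the outputs, ICAM1, which encodes a leukocyte adhesion receptor, rose in HepG2 from 224, 228 and 205 CPM to 437, 449 and 463 CPM. It fell in Huh7 from 558, 648 and 655 CPM to 363, 364 and 399 CPM. The difference was −1.76 (SE 0.104, adjusted p = 1.95e-06), though ICAM1 shares over 20% of its exon bases with another gene, and the strand setting of the counting is not given. SOD2, the mitochondrial superoxide dismutase, did the same, with log2 fold changes of 0.65 and −0.86. CXCL2, a neutrophil chemokine, had 1.63, 0.523 and 0.561 CPM with Ctrl-siRNA and 3.37, 1.77 and 4.72 CPM with UBL5 siRNA in HepG2. In Huh7, it went from 18.6, 17.4 and 21.5 CPM to 4.54, 5.29 and 4.92 CPM. Its difference was −3.80 (SE 0.511, adjusted p = 0.000272), with HepG2 near the limit of detection. CXCL3, its close relative, had 0.357, 0.131 and 0 CPM and 1.01, 0.646 and 1.43 CPM in HepG2 (adjusted p = 0.0752) and fell by 1.51 in Huh7, with a difference of −4.16 (SE 0.672). CXCL1 and CXCL5, chemokines of the same family, were also near the limit in HepG2. CXCL1 had 0.516, 0.174 and 0 CPM and 0.876, 0.861 and 0.330 CPM there, against 83.0, 75 and 89.9 CPM and 12.6, 14.2 and 13.6 CPM in Huh7. CXCL5 had 1.03, 0.436 and 0 CPM and 0.692, 0.775 and 0.330 CPM in HepG2, against 718, 590 and 578 CPM and 91.2, 96.5 and 95.8 CPM in Huh7. For both, the groups overlapped in HepG2 and were far apart in Huh7. The differences were −4.27 (SE 0.634, adjusted p = 0.000514) and −3.12 (SE 0.720, adjusted p = 0.00755), and they rest on the fall in Huh7 set against a few counts in HepG2. CXCL5 did not pass with limma voom and line weights (adjusted p = 0.072).

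Of 17 chemokines and inflammatory outputs tested, of 28 in the list, 11 differed and all 11 were lower in Huh7, with a median difference of −1.03. The 11 include CXCL1, CXCL2, CXCL3 and CXCL5, which had few counts in HepG2 and so little room to fall there. The tally is limited by depth for them. In HepG2 6 rose and 1 fell, beside 36% of all genes tested called in either direction there. In Huh7 2 rose and 10 fell, beside 69.8%. CXCL8, the gene of interleukin 8, had 1.13 (adjusted p = 0.0599) in HepG2 and fell by 1.29 in Huh7. LCN2, which encodes lipocalin 2, had −0.11 (adjusted p = 0.93) in HepG2 and fell by 3.36 in Huh7. The complement gene C3 had 0.04 in HepG2 and fell by 0.78 in Huh7. Of 31 interferon-stimulated genes, 9 (29%) differed, 7 lower and 2 higher in Huh7, beside 21.5% of all genes tested and 26.2% of protein-coding genes. In this list 4 to 5 differed without any single library of Huh7 or without UBL5 siRNA replicate 1 or 2 of HepG2. IFIH1, the double-stranded RNA sensor MDA5, fell by 0.51 in HepG2 and 2.32 in Huh7. IFIT3 was 1 of the 2 higher ones, falling by 1.25 in HepG2 and at −0.23 (adjusted p = 0.127) in Huh7.

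**Figure D3:**
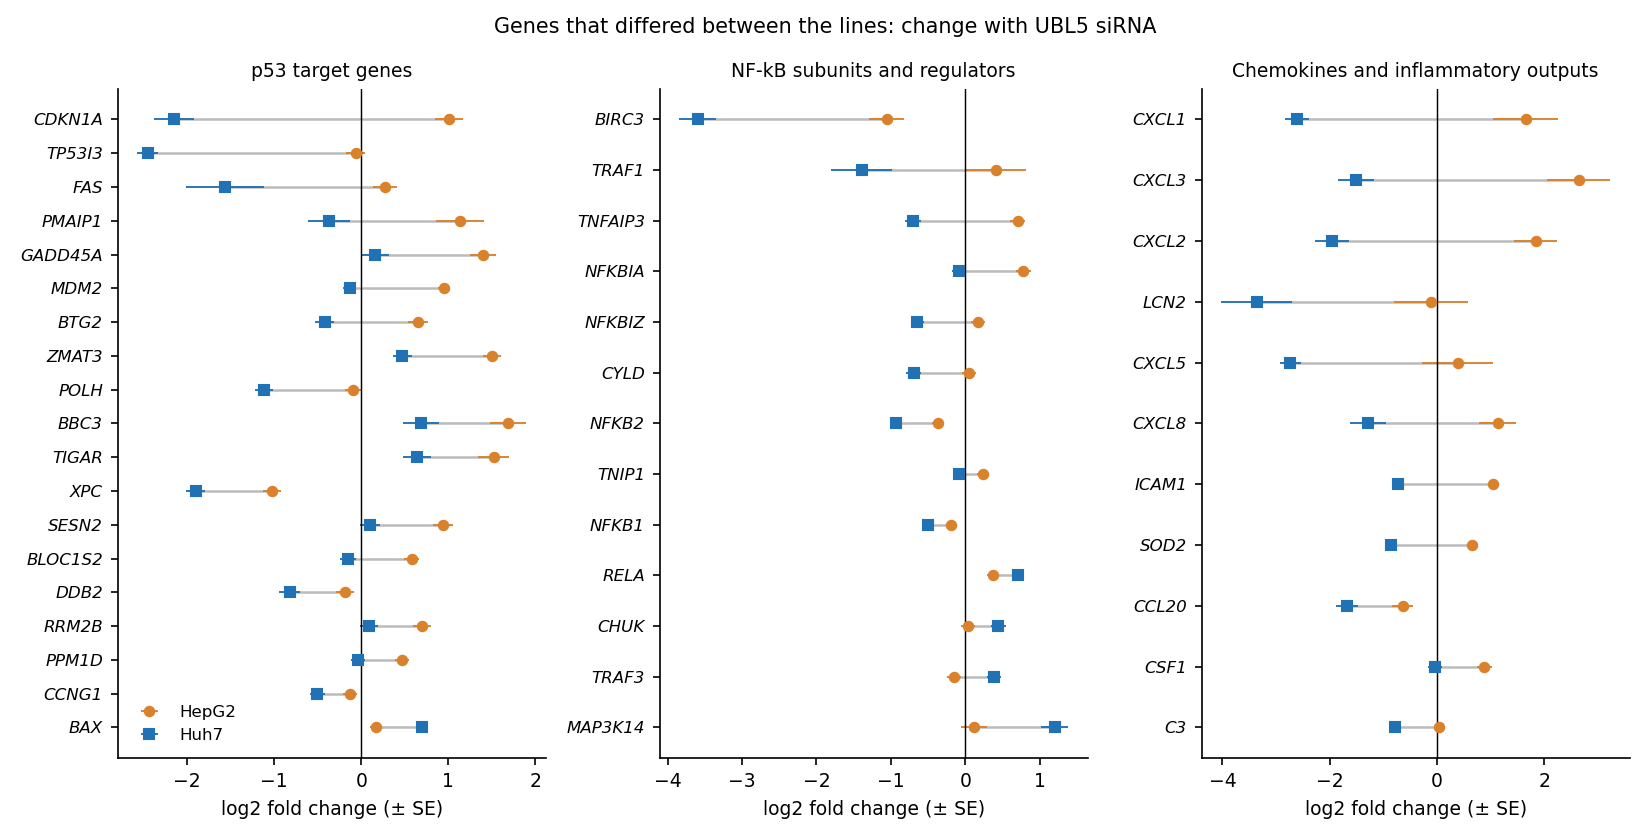
Log2 fold change (± SE, n = 3 libraries per group) with UBL5 siRNA in HepG2 (orange circles) and Huh7 (blue squares) for the genes of 3 lists that passed the test of the difference. The SE came from a single model over all 12 libraries and does not show the spread of each line. Blue lies to the left of orange for 18 of 19 p53 targets, 9 of 13 NF-κB genes and 11 of 11 inflammatory outputs. Among the outputs, CXCL1, CXCL2, CXCL3 and CXCL5 had few counts in HepG2.

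Genes of the death machinery divided both ways. CASP2, an initiator caspase, had 43.5, 43.6 and 34.3 CPM with Ctrl-siRNA and 29, 30.4 and 25.9 CPM with UBL5 siRNA in HepG2, and in Huh7 65.3, 56.7 and 58.5 CPM and 94.5, 89.8 and 84.0 CPM. It thus fell in HepG2 and rose in Huh7 (difference 1.08, SE 0.146, adjusted p = 0.00028). BID, which links death receptors to mitochondria, rose in both lines, by 0.36 and 1.14. CFLAR, which encodes the caspase inhibitor c-FLIP, rose by 0.70 in HepG2 and fell by 0.18 in Huh7. MCL1, an anti-apoptotic relative of BCL2, fell in both lines with a difference of 0.25 (SE 0.151, adjusted p = 0.272). Of 25 pro-apoptotic effectors 10 (40%) differed, 5 in each direction. Of 10 anti-apoptotic genes 3 (30%) differed, and of 16 genes of death receptors and adaptors 6 (37.5%) did, 4 of them lower in Huh7. These stand beside 21.5% of all genes tested and 26.2% of protein-coding genes.

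Genes of cell proliferation fell more in HepG2. E2F1, the transcription factor that opens S phase, had 108, 98.6 and 91.3 CPM with Ctrl-siRNA and 31.8, 24.2 and 19.6 CPM with UBL5 siRNA in HepG2. In Huh7, the values were 97.5, 91.3 and 92.6 CPM and 67.3, 66.5 and 62.7 CPM. The control levels of the lines overlapped, and E2F1 fell by 1.97 in HepG2 and 0.52 in Huh7, a difference of 1.45 (SE 0.180, adjusted p = 0.000155). CDC6, which loads the MCM helicase, fell from 171, 184 and 180 CPM to 98.5, 76.5 and 74.4 CPM in HepG2. It had 126, 120 and 109 CPM and 132, 119 and 104 CPM in Huh7, where the groups overlapped, and its difference was 1.10 (SE 0.155, adjusted p = 0.000351). MCM10, an initiator of replication forks, went opposite ways, from 67.7, 60.7 and 54.5 CPM to 42.3, 33 and 30.9 CPM in HepG2 and from 114, 95.9 and 94.1 CPM to 164, 146 and 125 CPM in Huh7. The difference was 1.3 (SE 0.186, adjusted p = 0.0004). CDT1, the partner of CDC6, and CHAF1A, a histone chaperone of replication, also fell in HepG2 and rose in Huh7.

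Of 38 replication genes, 18 differed and all 18 were higher in Huh7, with a median difference of 0.63. In HepG2 30 fell and 0 rose, beside 36% of all genes tested called in either direction there. In Huh7 20 fell and 6 rose, beside 69.8%. Of 42 mitotic genes 14 differed, 13 of them higher in Huh7 (median difference 0.34). CDCA5, the gene of sororin, which protects sister chromatid cohesion and whose splicing depends on UBL5 in other cells, fell in HepG2 from 129, 112 and 106 CPM to 94.8, 82.4 and 65.4 CPM. It rose in Huh7 from 90.8, 90.1 and 74.7 CPM to 128, 121 and 108 CPM, and the difference was 0.99 (SE 0.178, adjusted p = 0.0017). The securin gene PTTG1 was the 1 mitotic gene lower in Huh7, at −0.17 (adjusted p = 0.169) in HepG2 and −0.54 in Huh7. Of 28 genes of the Fanconi anemia pathway and homologous recombination 11 differed, 9 of them higher in Huh7 (median difference 0.45). RAD54L, a motor protein of recombination, had 32.4, 31.2 and 29.3 CPM and 25.1, 24.5 and 22.0 CPM in HepG2, and 29.5, 26.1 and 27.1 CPM and 45.4, 43.3 and 37.4 CPM in Huh7. RAD54L, PALB2, FANCE and FANCF fell in HepG2 and rose in Huh7. FANCL, the ubiquitin ligase of the pathway, fell in both lines and further in Huh7 (−1.71 and −2.46). XRCC3, which the study names, fell by 1.34 in HepG2 and had 0.01 (adjusted p = 0.947) in Huh7. Exons of other genes cover 76.7% of its exon bases, and the strand setting of the counting is not given.

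Without Ctrl-siRNA replicate 3 of HepG2, the library that stood apart, 26 of the 38 replication genes, 18 of the 42 mitotic genes and 17 of the 28 recombination genes differed. The corresponding counts were 21 of 30 p53 targets and 12 of 17 inflammatory outputs. Over all single libraries left out in turn, 13 to 26 replication genes, 11 to 19 mitotic genes and 9 to 17 recombination genes differed. The ranges were 16 to 21 for p53 targets and 10 to 12 for inflammatory outputs. Among 20 genes of CDK inhibitors and G1 regulators, 9 differed, 5 higher and 4 lower in Huh7. CCND1, the gene of cyclin D1, rose in both lines, by 0.50 and 0.93.

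**Figure D4:**
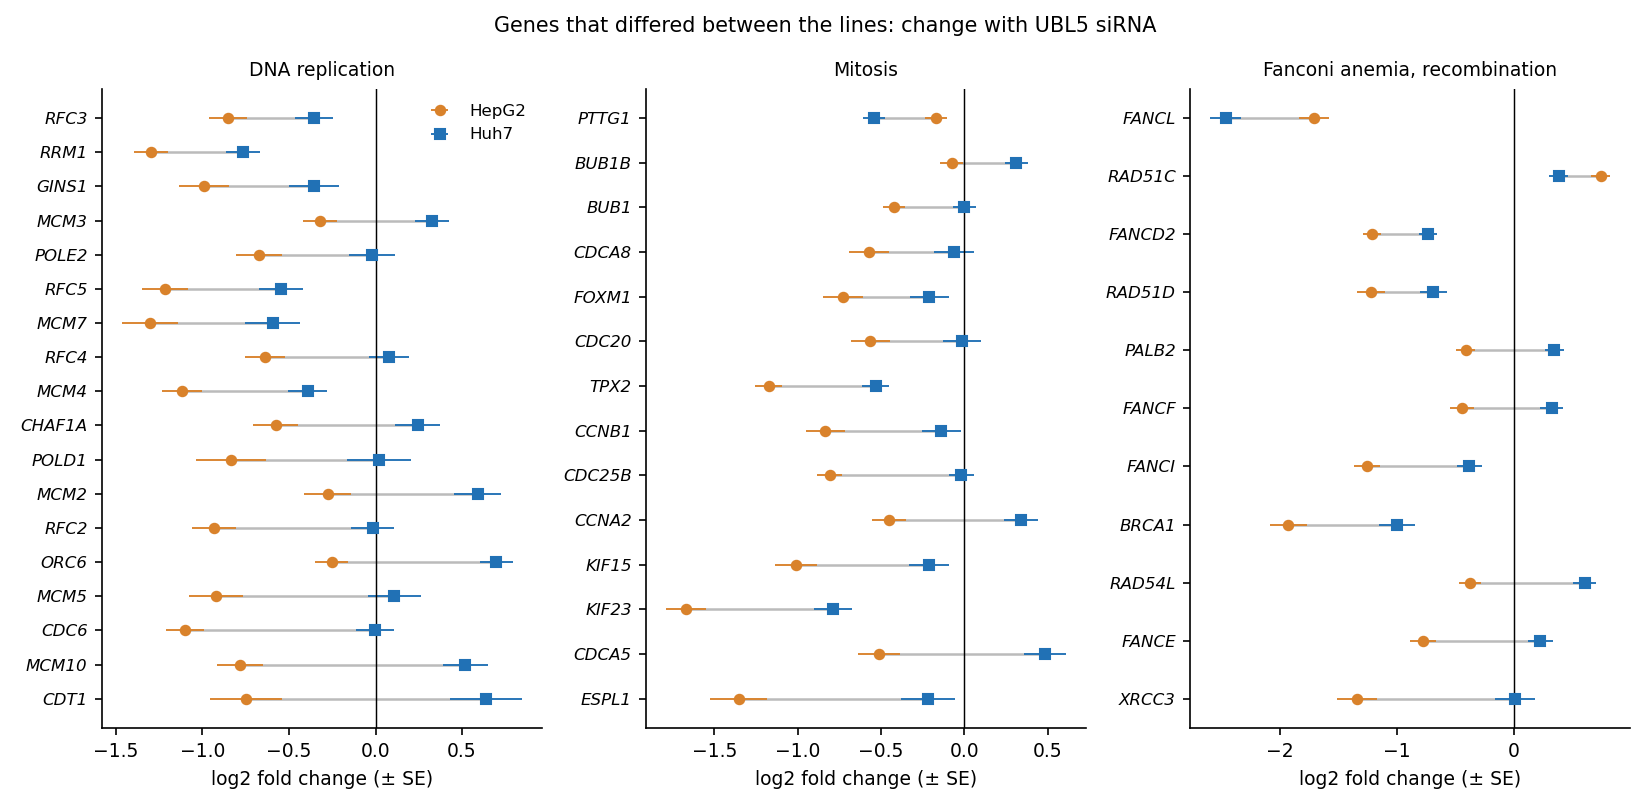
Log2 fold change (± SE, n = 3 libraries per group) with UBL5 siRNA in HepG2 (orange circles) and Huh7 (blue squares) for the proliferation genes that passed the test of the difference. The SE came from a single model over all 12 libraries and does not show the spread of each line. Blue lies to the right of orange for 18 of 18 replication genes, 13 of 14 mitotic genes and 9 of 11 genes of recombination.

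Secreted proteins of the liver mostly went lower in Huh7. HP, which encodes haptoglobin, rose in HepG2 from 28.7, 27.7 and 17.9 CPM to 72.5, 62.7 and 77.5 CPM. In Huh7, it fell from 34.6, 40.3 and 35.2 CPM to 31.7, 28.3 and 28.1 CPM, and the difference was −1.84 (SE 0.212, adjusted p = 9.81e-05). CP, the gene of the copper carrier ceruloplasmin, had 82.2, 76.8 and 87.4 CPM and 94.0, 82.4 and 89.5 CPM in HepG2, where the groups overlapped. It fell in Huh7 from 424, 492 and 470 CPM to 195, 196 and 232 CPM (difference −1.26, adjusted p = 3.06e-05), and just over 20% of its exon bases overlap another gene. The hemopexin gene HPX did likewise, at 0.16 (adjusted p = 0.465) and −1.11. HAMP, which encodes the iron hormone hepcidin, rose in both lines, from 4.72, 7.10 and 7.22 CPM to 119, 163 and 183 CPM in HepG2 and from 0.350, 0.394 and 0.243 CPM to 2.13, 1.92 and 2.82 CPM in Huh7. Its difference was −1.84 (SE 0.524, adjusted p = 0.0232). ITIH3, an inter-alpha-trypsin inhibitor chain, was 1 of 2 carriers higher in Huh7, falling by 0.52 in HepG2 and rising by 1.48 in Huh7. Of 25 plasma carriers and acute phase proteins, 13 differed, 11 lower in Huh7 (median difference −0.40).

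Of 38 complement and coagulation genes, 16 differed, 14 of them lower in Huh7 (median difference −0.50). In HepG2 8 rose and 8 fell, beside 36% of all genes tested called in either direction there. In Huh7 5 rose and 25 fell, beside 69.8%. C1S, the protease that starts the classical pathway, had 31.2, 29 and 37.9 CPM and 48.7, 45.3 and 53.7 CPM in HepG2, and 67.0, 75 and 72.1 CPM and 42.4, 42.0 and 42.0 CPM in Huh7. C1S rose in HepG2 and fell in Huh7, with a difference of −1.35 (SE 0.142, adjusted p = 5.92e-05). F2, the prothrombin gene, fell in both, by 0.46 and 1.33. C6, a component of the membrane attack complex, went the other way, from 10.8, 11.7 and 17.7 CPM to 3.27, 3.23 and 3.74 CPM in HepG2 and from 5.35, 4.24 and 3.35 CPM to 7.15, 7.36 and 7.65 CPM in Huh7. It had the difference of 2.74 (SE 0.301, adjusted p = 7.36e-05).

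The extracellular matrix and its receptors gave 12 genes that differed of 33 tested, and all 12 were lower in Huh7 (median difference −0.35). ITGAV, the integrin αV chain, rose in HepG2 from 233, 209 and 225 CPM to 357, 319 and 340 CPM and fell in Huh7 from 430, 380 and 386 CPM to 303, 296 and 294 CPM. Its difference was −1.03 (SE 0.0960, adjusted p = 2.42e-05). FN1, the fibronectin gene, had 0.07 (adjusted p = 0.66) in HepG2 and fell by 0.98 in Huh7. NID1, which encodes the basement membrane protein nidogen, rose in both lines, by 2.22 and 1.52. Of 31 iron and BMP-SMAD genes 12 differed, 8 of them lower in Huh7. Among these, FTL, the ferritin light chain, rose by 0.39 in HepG2 and fell by 0.56 in Huh7, and ID1, a target of BMP signaling, rose by 1.66 and 0.66.

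Fatty acid synthesis genes and nuclear receptors that differed were mostly higher in Huh7, while lists of other lipid and drug metabolism genes had more lower. MLXIPL, which encodes the glucose-sensing factor ChREBP, fell in HepG2 from 143, 142 and 118 CPM to 49.3, 53.7 and 42.4 CPM. It had 19.2, 19.1 and 19.2 CPM and 16.5, 19.4 and 20.8 CPM in Huh7, a difference of 1.45 (SE 0.156, adjusted p = 6.17e-05). Of 27 genes of fatty acid and triglyceride synthesis 11 differed, 9 higher in Huh7, and 6 to 7 differed without Ctrl-siRNA replicate 2 of HepG2, Ctrl-siRNA replicate 2 or 3 of Huh7 or UBL5 siRNA replicate 1 or 2 of Huh7. FASN, fatty acid synthase, was not among them: it rose in both lines, with a difference of −0.03 (SE 0.223, adjusted p = 0.944). NR0B2, the bile acid-induced repressor SHP, fell from 173, 228 and 247 CPM to 121, 131 and 131 CPM in HepG2. It rose from 20.7, 32.2 and 28 CPM to 44.3, 41.9 and 44 CPM in Huh7, with a difference of 1.45 (SE 0.202, adjusted p = 0.000339). RXRA, the common partner of nuclear receptors, rose in both lines, by 0.36 and 1.32. Of 34 hepatocyte transcription factors and nuclear receptors 13 differed, 9 higher in Huh7. Of 22 β-catenin targets 6 (27.3%) differed, all 6 higher in Huh7, a share near the 26.2% of protein-coding genes. Among the 6, LGR5 fell by 0.32 in HepG2 and rose by 0.31 in Huh7. Of 28 genes of cholesterol synthesis and uptake, 6 (21.4%) differed, 2 higher and 4 lower in Huh7, a share near that of all genes, with 11 without Ctrl-siRNA replicate 1 of HepG2 and 2 to 3 without any single Huh7 library other than Ctrl-siRNA replicate 1. The apolipoprotein list gave 8 of 19, 3 higher and 5 lower, and the cytochrome P450 and conjugation list 9 of 28, 3 higher and 6 lower.

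ER chaperones and splicing proteins differed in shares near that of all genes (21.5%). The ER chaperones and ERAD genes gave 6 of 31 (19.4%), all lower in Huh7, and 11 without Ctrl-siRNA replicate 3 of HepG2. ATF6, a sensor of ER stress, was the first of them, with 85.0, 86.4 and 87.5 CPM and 142, 151 and 180 CPM in HepG2 and 104, 109 and 103 CPM and 100, 96.1 and 96.0 CPM in Huh7. Its difference was −0.98 (SE 0.111, adjusted p = 9.09e-05). The master chaperone HSPA5 had a difference of −0.17 (adjusted p = 0.42), the transcription factor ATF4 0.15 (adjusted p = 0.415) and DDIT3, the gene of CHOP, 0.52 (adjusted p = 0.121), the last sharing over 20% of its exon bases with another gene. Of 34 ATF4 and CHOP targets 11 differed, 8 higher in Huh7. PHGDH, which opens serine synthesis, fell by 1.18 in HepG2 and 0.32 in Huh7. TRIB3, a pseudokinase induced by ATF4, did not pass the test in HepG2 (adjusted p = 0.989) and rose by 0.78 in Huh7.

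Of 29 tri-snRNP proteins and UBL5 partners, 5 (17.2%) differed, all 5 higher in Huh7, and 10 did without Ctrl-siRNA replicate 3 of HepG2. SART1, the tri-snRNP partner of UBL5, had 73.4, 76.2 and 80.0 CPM and 86.5, 95.2 and 79.3 CPM in HepG2, where the groups overlapped. In Huh7, it rose from 73.9, 76.2 and 76.2 CPM to 111, 109 and 112 CPM, and the difference was 0.37 (SE 0.100, adjusted p = 0.0185). PRPF4 and PRPF3 of the U4/U6 particle rose in both lines, PRPF4 by 0.43 and 1.01 and PRPF3 by 1.35 and 1.77. Of 34 SR proteins, hnRNPs and their kinases 6 (17.6%) differed, again all higher in Huh7. SRPK2, a kinase of SR proteins, rose by 0.70 and 1.52. The SR protein gene SRSF4 fell by 0.38 in HepG2 and rose by 0.23 in Huh7. Cytosolic heat shock chaperones gave 7 of 22 (31.8%), NRF2 targets 9 of 28 (32.1%) and AP-1 and ERK feedback genes 7 of 31 (22.6%). These stand beside 21.5% of all genes tested and 26.2% of protein-coding genes. Among NRF2 targets, AKR1C1, an aldo-keto reductase, rose by 0.68 in HepG2 and fell by 0.96 in Huh7. Of the 15 mitochondrially encoded genes 0 passed the test of the difference in edgeR, with 2 at an unadjusted p under 0.05. MT-CO1, the cytochrome oxidase subunit with the smallest p, had a difference of −0.60 (SE 0.214, adjusted p = 0.0606), and DESeq2 called it alone of the 15 (adjusted p = 0.0203). In edgeR, the stricter filter called MT-CO1 (adjusted p = 0.0434), as did leaving out replicate 1 of either HepG2 group or Ctrl-siRNA replicate 1 of Huh7 (0.0236 to 0.0496), the last with MT-RNR2 also (0.048).

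**Figure D5:**
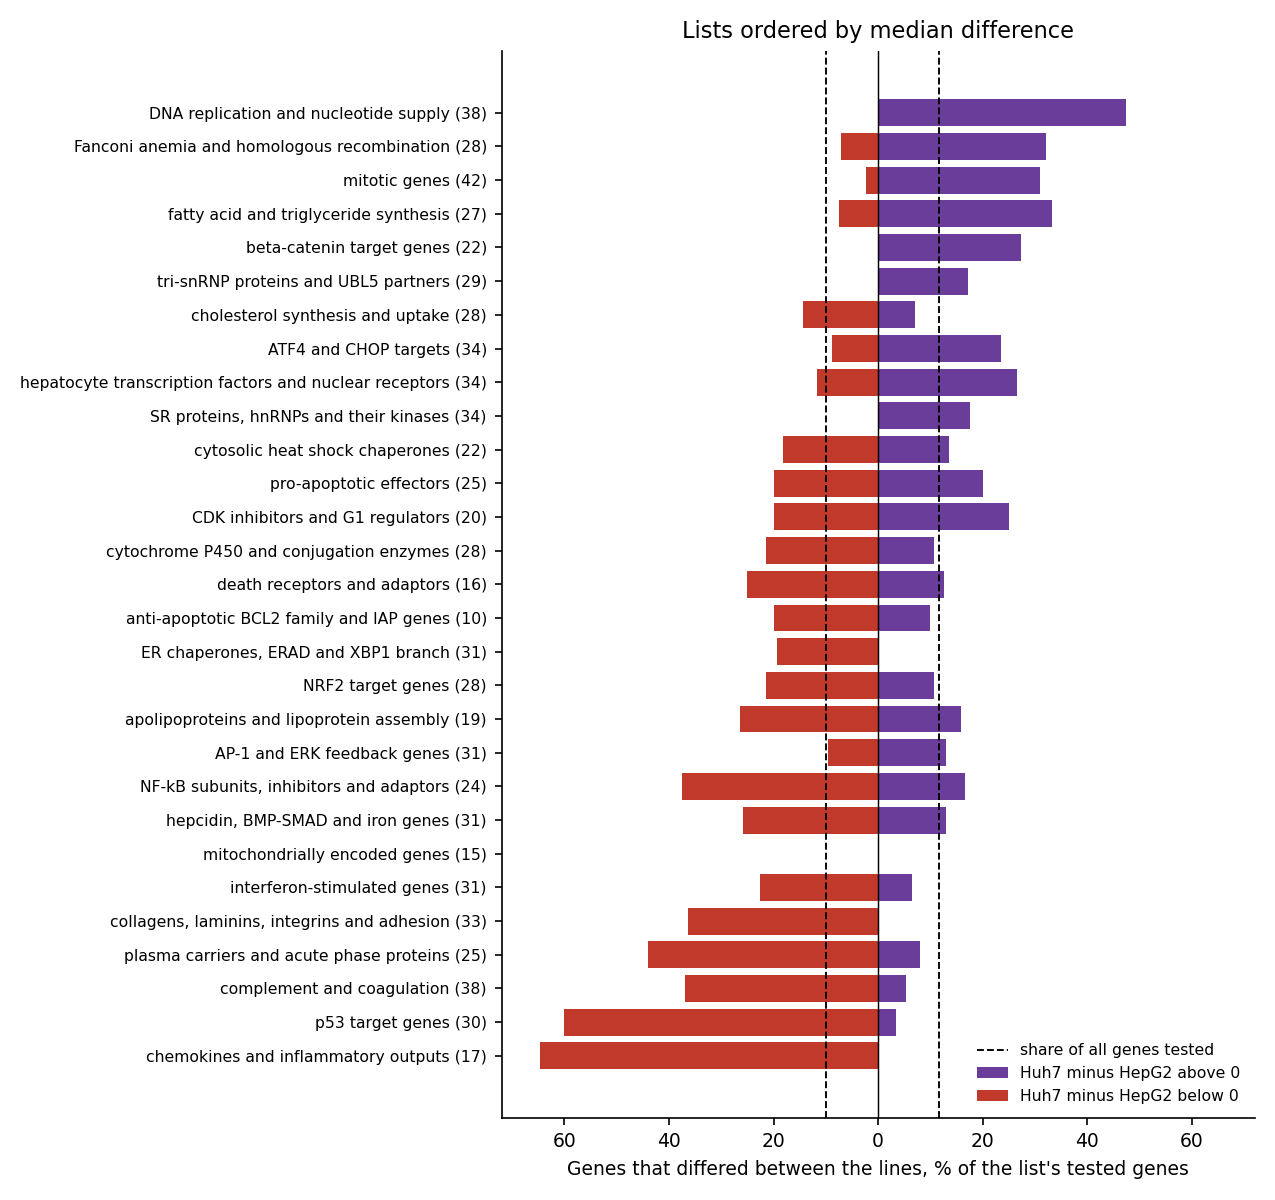
Share of each list's tested genes (number in brackets) that passed the test of the difference, higher in Huh7 (purple, to the right) or lower in Huh7 (red, to the left), in %, with lists ordered by their median difference. Dashed lines are the shares over all genes tested, 11.7% and 9.88%. Replication genes lie on the right alone and inflammatory outputs on the left alone, CXCL1, CXCL2, CXCL3 and CXCL5 among them with few counts in HepG2.

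Genes outside these lists gave many of the widest gaps. HIP1, a clathrin adaptor, had the highest difference of the well-expressed protein-coding genes (mean of at least 10 CPM). It fell in HepG2 from 22.5, 21.4 and 23.6 CPM to 14.1, 11.2 and 11.6 CPM and rose in Huh7 from 12.5, 11.2 and 10.4 CPM to 43.3, 39.6 and 35.2 CPM. The difference was 2.66 (SE 0.169, adjusted p = 1.95e-06). HEY1, a repressor induced by Notch signaling, had 4.60, 4.71 and 6.90 CPM against 5.49, 5.12 and 5.22 CPM in HepG2 and rose from 6.05, 6.83 and 6.61 CPM to 30.7, 33.9 and 42.4 CPM in Huh7 (difference 2.50, adjusted p = 2.85e-05). SESN3, a sestrin of the stress response, fell in HepG2 from 2.26, 2.57 and 5.57 CPM to 0.738, 0.689 and 0.494 CPM. In Huh7, it had 39.5, 37.3 and 37.9 CPM and 35.6, 40.5 and 39.3 CPM, and the difference was 2.44 (SE 0.408, adjusted p = 0.0011). SLC29A2, a nucleoside transporter, fell in HepG2 from 3.77, 3.22 and 5.15 CPM to 1.52, 0.904 and 0.824 CPM and rose in Huh7 from 112, 110 and 112 CPM to 181, 187 and 176 CPM. PFKM, the muscle form of phosphofructokinase, also fell in HepG2 and rose in Huh7, by 1.08 and 1.14.

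At the other end, OR2I1P, an olfactory receptor gene, rose in HepG2 from 6.55, 4.18 and 5.71 CPM to 20.3, 13.5 and 14.2 CPM and fell in Huh7 from 67.7, 66.2 and 79.0 CPM to 15.4, 14.7 and 15.4 CPM. Its difference was −3.77 (SE 0.239, adjusted p = 1.95e-06). The histone gene H2AC6 rose in HepG2 from 6.47, 7.80 and 6.24 CPM to 12.5, 17.2 and 19.7 CPM and fell in Huh7 from 31.4, 30.5 and 27 CPM to 8.24, 10.0 and 8.14 CPM. GABARAPL1, an autophagosome protein, rose from 11.7, 12.9 and 17.8 CPM to 21.9, 25 and 30.7 CPM in HepG2 and fell from 56.6, 58.1 and 60 CPM to 23.9, 24.6 and 20.5 CPM in Huh7 (difference −2.21, SE 0.215, adjusted p = 3.15e-05). SLC10A1, the bile acid transporter NTCP, had 0.278, 0.349 and 0 CPM and 0.968, 1.03 and 1.26 CPM in HepG2, near the limit of detection, and fell in Huh7 from 274, 287 and 268 CPM to 228, 201 and 204 CPM. Most of these genes stood at quite different levels in the control cells of the lines.

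Some wide responses went one way in both lines and did not pass the test of the difference. STEAP3, a ferrireductase, rose in HepG2 from 11.6, 12.7 and 8.37 CPM to 57.5, 51.9 and 40.7 CPM and in Huh7 from 10.4, 10.4 and 9.87 CPM to 53.6, 51.3 and 46.2 CPM. The difference was 0.10 (SE 0.213, adjusted p = 0.798). SPOPL, a substrate adaptor of cullin ligases, rose by 2.11 and 2.19, with a difference of 0.08 (95% interval −0.16 to 0.32). PRR11, a cell cycle gene, fell from 145, 129 and 138 CPM to 25, 19.1 and 19.9 CPM in HepG2 and from 119, 119 and 110 CPM to 23.5, 18.8 and 20.9 CPM in Huh7. The difference was 0.23 (SE 0.148, adjusted p = 0.304). TCF19, another cell cycle gene, fell by 2.28 and 2.33. For PRR11 and TCF19, a gap as wide as that of E2F1 lies outside the 95% interval.

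Differences also varied by the kind of gene. Of 11901 protein-coding genes 26.2% differed, 1754 higher and 1370 lower in Huh7. Of 1495 lncRNA genes 10.4% differed, 28 higher and 127 lower in Huh7, with a median difference of −0.50 over all lncRNA genes tested. Their median log2 fold change was −0.05 in HepG2 and −0.50 in Huh7. NEAT1, the scaffold RNA of paraspeckles, chosen after its values were seen, had mean levels of 62.6 and 48.0 CPM in HepG2 and fell from 86.8 to 21.9 CPM in Huh7, with a difference of −1.60 (adjusted p = 0.00389). SNHG1, a snoRNA host gene chosen likewise, went the other way, with 0.32 (adjusted p = 0.107) in HepG2 and 1.17 in Huh7. The share of genes that differed rose with expression, from 2.45% of genes under 1 CPM to 34.4% of genes over 100 CPM. The lncRNA genes had a median level of 1.13 CPM and the protein-coding genes 35.1 CPM, and the part of expression in the gap between their shares was not tested.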

How the data were processed

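RNA was sequenced as 50-base single reads (TruSeq stranded mRNA), demultiplexed with bcl2fastq, checked with FastQC 0.11.9, aligned to GRCh38 with STAR 2.7.6a and counted with featureCounts by the authors, who deposited raw counts per gene and, for each line, tables divided by the sign of their DESeq2 1.30.0 fold change. Those fold changes and p-values were not used. The strand setting and annotation of the counting are not given in the sources used here, and genes with over 20% of exon bases in another GENCODE 44 gene are marked in the text. Tables were joined by Ensembl identifier, and 15668 genes passed filterByExpr (minimum count 10, total 15). One edgeR 4.0.16 quasi-likelihood model over 12 libraries (TMM, R 4.3.3) gave fold changes, SEs and the difference, with Benjamini-Hochberg adjustment over all genes tested and no minimum fold. Separate fits per line gave the adjusted p within a line. On simulated counts the test recovered 11.3%, 53.8% and 77.5% of differences of 0.5, 1 and 2 (log2). These were 7 of 62, 35 of 65 and 55 of 71 genes, with 10 false calls beside them. The simulation changed few genes, in Huh7 UBL5 siRNA libraries alone, with no other siRNA effect, unlike these data. DESeq2 1.42.0 and limma 3.58.1 served as alternatives. Genes and lists were chosen with earlier results of these data known. Named were genes the study discusses, the 10 highest and 10 lowest differences among protein-coding genes of at least 10 CPM, the 4 smallest p-values of each list, and the 5 widest opposite and shared changes. Other list members, and NEAT1 and SNHG1, were chosen after their values were seen.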

Additional observations from a re-analysis of the deposited data

Results flagged for a closer look

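The response differed between the lines, by a test of the difference itself, for 3374 genes, of which 320 were called in opposite directions. Among protein-coding genes with a mean of at least 10 CPM and no overlap of the siRNA groups in at least 1 line, the difference (Huh7 minus HepG2, log2) was lowest for CXCL1 (−4.27), OR2I1P (−3.77), GAS7 (−3.49), ASB4 (−3.40), AMOTL1 (−3.30), CDKN1A (−3.17), CXCL5 (−3.12), H2AC6 (−3.02), SLC10A1 (−2.82) and TSPAN5 (−2.71). INKA2 (−2.23) and GABARAPL1 (−2.21) rose in HepG2 and fell in Huh7. By the same limits it was highest for HIP1 (2.66), SLC29A2 (2.60), TMEM184A (2.59), AKR1B10 (2.56), FUT6 (2.55), HEY1 (2.50), SESN3 (2.44), SLC16A9 (2.38), PPP1R3B (2.27) and AOC3 (2.23). PFKM (2.22), NPM2 (1.92) and NDOR1 (1.77), the last with over 20% of its exon bases in another gene, fell in HepG2 and rose in Huh7. Several of these values rest on a line with few counts. In HepG2, GAS7 had 0.833, 0.654 and 0 CPM and AMOTL1 0.198, 0.305 and 0.0350 CPM with Ctrl-siRNA, and PPP1R3B had at most 1.68 CPM in any library. In Huh7, ASB4 had 0.142, 0.0961 and 0 CPM with UBL5 siRNA, and FUT6 and AOC3 had under 1 CPM in each control library. Such genes passed the filter through the line where they are high. Control levels were also under 1 CPM in each library for AKR1B10 in Huh7 and TSPAN5 in HepG2. CXCL5 and PPP1R3B did not pass with limma voom and line weights (adjusted p = 0.072 and 0.138), nor ASB4 without Huh7 UBL5 siRNA replicate 3 (adjusted p = 0.0615). The condition for a flag was a difference between the lines, which the other genes that passed the test also met. Groups of 3 libraries were too small to test for an outlying sample.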

How the results depend on the processing

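RLE scaling (3350 genes), DESeq2 (3825), no filter (3343), a stricter filter (3166), limma voom with line weights (3154) and leaving out single libraries (2467 to 4310, lowest without Huh7 UBL5 siRNA replicate 2 and highest without HepG2 Ctrl-siRNA replicate 3) kept the count within 1.5 times of 3374. A minimum difference of 1.5 fold left 423 genes, 178 higher and 245 lower in Huh7, with 61 rising in HepG2 and falling in Huh7, 71 the reverse, 73 moving one way in both, 40 called in HepG2 alone, 178 in Huh7 alone and 0 in neither line. Genes called in neither line were 121 with DESeq2, 30 with the stricter filter and 96 without both HepG2 libraries numbered 3, a choice made after seeing the data.

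With single libraries left out, 1340 to 2197 genes were higher and 1127 to 2113 lower in Huh7. Genes rising in HepG2 and falling in Huh7 ranged from 89 to 186 and the reverse from 93 to 222, both lowest without HepG2 UBL5 siRNA replicate 2. Those moving one way in both ranged from 625 to 1222, in HepG2 alone from 278 to 611, in Huh7 alone from 1168 to 1991 and in neither from 18 to 130. The reverse pattern held 103 without HepG2 Ctrl-siRNA replicate 2 and 102 without UBL5 siRNA replicate 3.

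The replicate number as a block gave 4338 genes, with 290 falling in HepG2 and rising in Huh7 and 1447 moving one way in both. A block in HepG2 alone, chosen after seeing the data, gave 4755, with 1517 moving one way and 153 called in neither line. Deviations of same-numbered libraries correlated at 0.0796, 0.104 and 0.0713 in HepG2 and 0.140, −0.00285 and 0.195 in Huh7 over all genes, and at 0.334, 0.260 and 0.269 and at 0.393, 0.0467 and 0.494 over genes of at least 10 CPM. The main model did not pair the samples by number, though over all genes 5 of 6 pairs correlated best with their own number. The Huh7 pair near 0 in both gene sets cannot decide whether the numbers pair samples, since the deviations within a group sum to 0. Under the block DDIT3 (adjusted p = 0.0437), MCL1 (0.0478), LZTS2 (0.002), MT-RNR2 (0.00178), MT-CO1 (0.0328) and MT-CO2 (0.0496) passed the edgeR test.

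List counts that moved by over 1.5 times without HepG2 Ctrl-siRNA replicate 3 were AP-1 genes (7 to 12), ER chaperones (6 to 11), tri-snRNP proteins (5 to 10) and recombination genes (11 to 17). Heat shock chaperones went from 7 to 4 without HepG2 UBL5 siRNA replicate 2 or any single Huh7 library other than Ctrl-siRNA replicate 1, and iron genes from 12 to 7 without Huh7 Ctrl-siRNA replicate 2 or 3. Of 135 named genes past the threshold, 125 kept the call under every alternative other than the minimum fold, which 76 lost, and 0 changed sign. The cause of these shifts was not tested. DDIT3 also passed without HepG2 UBL5 siRNA replicate 3 (adjusted p = 0.0271), and ATF4 without both HepG2 libraries numbered 3 (0.031). Genes of few counts in a line are limited by depth, among them CXCL1, CXCL2, CXCL3, CXCL5, SLC10A1, GAS7, AMOTL1, PPP1R3B, ASB4, FUT6, AOC3, AKR1B10, TSPAN5 and HAMP.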

Other observations

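Genes listed for a single line were not compared, 1859 for HepG2 and 2653 for Huh7, of which 170 and 459 had a mean count of at least 100. In HepG2, CYP24A1, the enzyme that breaks down vitamin D, ranged from 29.2 to 33.9 CPM with Ctrl-siRNA and from 106 to 181 CPM with UBL5 siRNA. PAQR8 ranged from 93.7 to 100 CPM and from 149 to 203 CPM, again without overlap. PTK7, a Wnt coreceptor, had 139 to 179 CPM and 185 to 225 CPM. CD74, the invariant chain of antigen presentation, had 72.2 to 114 CPM and 63.0 to 86.2 CPM, with overlap. In Huh7, the membrane protein genes TMEM176A and TMEM176B had 211 to 244 CPM and 221 to 249 CPM with Ctrl-siRNA, against 135 to 141 CPM and 107 to 115 CPM with UBL5 siRNA. CD81, a tetraspanin and entry receptor of hepatitis C virus, had 154 to 167 CPM and 191 to 204 CPM. Malic enzyme gene ME1 had 152 to 170 CPM and 117 to 125 CPM. No test was run on these genes.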
